A study of Mus musculus with 8 samples.

Results

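The integrated stress response was examined at the level of its mRNAs in mouse oocytes that lack Cnot7 and Cnot8, catalytic deadenylase subunits of the CCR4-NOT complex. The 10 genes described are Atf4, Atf5, Ddit3, Xbp1, Trib3, Ppp1r15a, Ddit4, Sesn2, Asns and Chac1, taken by name from the 46078 genes of the count table. They were grouped as transcription factors and targets that act downstream of phosphorylated eIF2α. Xbp1 is included, although it belongs to an arm that runs beside eIF2α. Each matched 1 row, and all 10 passed the filter on low counts that left 19241 genes for testing. Fully grown germinal vesicle (GV) oocytes of 2 genotypes were compared, CNOT7&8 KO and Zp3-Cre control, with 4 libraries of 100 pooled oocytes each. The KO oocytes came from females with floxed Cnot7 and floxed Cnot8 alleles and the Zp3-Cre transgene, which is driven by a zona pellucida promoter active in growing oocytes, so that both genes are deleted in the oocyte and not in the surrounding follicle cells. Control oocytes carried Zp3-Cre, which both groups therefore share. The study's methods describe females of C57BL/6J background, 4 weeks old, injected with PMSG (a gonadotropin that drives follicle growth) 48 h before collection, and GV oocytes freed of cumulus cells with hyaluronidase and held in medium with dbcAMP, which blocks resumption of meiosis. Nothing in the labels ties a library to single animals, so p-values measure the spread between these libraries, which may be in part technical.

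The integrated stress response starts from kinases that each sense a different stress, unfolded protein in the endoplasmic reticulum (ER), amino acid shortage, double-stranded RNA or heme loss, and that all phosphorylate the translation initiation factor eIF2 on its α subunit. Phosphorylated eIF2 blocks its exchange factor eIF2B, most translation slows, and a few mRNAs with upstream open reading frames, Atf4 above all, are translated more. ATF4 protein then activates genes of amino acid supply, redox balance and, with CHOP (the product of Ddit3), of feedback and cell death. Much of the response is therefore set by translation, and the libraries measure mRNA only, so that neither ATF4 protein, nor eIF2α phosphorylation, nor the splicing of Xbp1 mRNA was seen in them.

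Total counts ranged from 8639444 to 44092144 per library, and 3 counts, taken as the detection floor, correspond to 0.068 CPM (counts scaled to a fixed library total) in the deepest and 0.347 CPM in the shallowest library, as counting error only. Values below are CPM scaled by edgeR's TMM method, and replicates are given in the order 1 to 4, which carries no ranking. Among the targeted genes, Cnot8 was at 154 to 197 CPM in control and 33.1 to 36.1 CPM in KO libraries, and Cnot7 at 886 to 1048 and 622 to 788 CPM, with reads on any exons that remain included. The decrease of Cnot7 (log2 fold change -0.38, adjusted p = 0.0105) was lost with library sizes unscaled (-0.093, adjusted p = 0.383) and with TMM factors from genes of at least 10 CPM (-0.12, adjusted p = 0.217). Oocyte markers such as Zp3 and Gdf9 were abundant in every library, with a summed level of the 12 oocyte markers of 17866 to 20935 CPM in control and 14964 to 17384 CPM in KO libraries. The 18 granulosa cell markers summed to 135 to 183 CPM in control and to 254 to 324 CPM in KO libraries, 7 of the 17 tested were DEGs and higher in KO libraries, where 23.8% of all tested genes were, Cyp19a1, the estrogen synthase gene, fell 1.87-fold (adjusted p = 0.00051), and the defining marker Foxl2 had 0 or 1 count in every library. Of 12 markers of blood, immune, vessel and stromal cells, the hemoglobin genes Hbb-bs and Hba-a1 were at 0 throughout, and the list summed to 89.8 to 111 CPM in control and 79.7 to 93.2 CPM in KO libraries, most of it Pecam1. Of the 8 tested, the immune markers Cd68 (0.722 to 1.78 CPM in control, 2.61 to 4.01 CPM in KO libraries) and Ptprc (at most 0.340 CPM and 0.326 to 1.11 CPM) were DEGs and higher, and 0 were lower by adjusted p. Ptprc had 1 to 5 counts in control libraries and passed the filter on low counts only through KO libraries, so its call depends on the filter. In pooled RNA, fewer cells of a type and less RNA per cell cannot be told apart.

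The elements that carry this regulation in the genes themselves are shown first. The C/EBP-ATF response element (CARE), the site that ATF4 binds together with a C/EBP protein, was searched as TTGCATCA on both strands of the 300-base RefSeq promoters (250 bases before to 50 after the start site, GRCm38.p6). It stood in 0.895% of 32851 promoters and, among the 10 genes, in that of Chac1 alone, 193 bases before the start site (chr2:119351039-119351066, plus strand). A looser form, TTNCATCA, stood in 3.97% of promoters and was also found in Trib3, 14 bases after the RefSeq start site (chr2:152344029-152344056, minus strand), and, reading on the opposite strand, in Asns, 23 bases before its RefSeq start site (chr6:7693215-7693242, minus strand). The GENCODE gene bounds given below start elsewhere. By them the matched letters lie before the Trib3 gene and within the Asns gene. The sites are written 5′ to 3′ on the strand of the gene, with the matched letters in capitals.
Chac1 CARE: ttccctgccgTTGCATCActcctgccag
Trib3 loose CARE: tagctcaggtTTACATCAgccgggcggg
Asns loose CARE, opposite strand: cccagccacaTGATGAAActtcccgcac
The ER stress element, by which ATF6 and XBP1 are known to act, was in 0.119% of promoters and in none of the 10. A match is a description of letters only, and elements outside these windows were not searched. The looser search holds every match of the stricter one.

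In oocytes, the 3′UTR decides how an mRNA is stored, deadenylated and translated, and the cytoplasmic polyadenylation element (CPE), the site bound by CPEB, is the best known element of that kind. Searched as TTTTAT in the longest annotated 3′UTR (GENCODE vM21), a CPE was found in 2 of the 10 genes, Ddit4 and Trib3, against 56.2% of the 15082 tested genes with a 3′UTR of at least 50 bases. The AU-rich pentamer ATTTA was in Atf5, Chac1, Sesn2, Xbp1 and Ppp1r15a, beside 69.6% of those tested genes. The AU-rich nonamer TTATTTATT, bound by factors that recruit deadenylases, was searched after the values were seen. It was in 7.84% of those tested genes and in 2 of the 10. Chac1 held it once, and the 76-base 3′UTR of Ppp1r15a held 4 overlapping copies, of which 1 is shown. The sites stand at chr10:59950213-59950238 (minus strand), chr2:152337862-152337887 (minus strand), chr2:119353773-119353801 (plus strand) and chr7:45522953-45522981 (minus strand) of GRCm38, in the order printed.
Ddit4 CPE: ccttatttttTTTTATtactgacaag
Trib3 CPE: ggacagtcccTTTTATcagtgcccca
Chac1 AU-rich nonamer: acttgaacctTTATTTATTgcaccatgtt
Ppp1r15a AU-rich nonamer: ttcctattatTTATTTATTtatttatttg
The 3′UTRs of the 10 genes were between 76 bases (Ppp1r15a) and 1684 bases (Sesn2) long, and that of Atf4 was 81 bases. Upstream ATGs, the start codons through which Atf4, Atf5, Ddit3 and Ppp1r15a are known to escape the block of translation, numbered 3 in the annotated 5′UTR of Atf4, 3 in Ppp1r15a, 2 in Atf5 and 2 in Ddit3. Asns, Sesn2 and Xbp1 had 1 each and Ddit4, Trib3 and Chac1 had 0, where 52.2% of the tested genes had at least 1.

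The 10 mRNAs did not move in one direction. Trib3 rose 6.05-fold and Xbp1 2.77-fold in CNOT7&8 KO oocytes, Sesn2 rose 1.87-fold, Ddit4 fell 1.51-fold, Ppp1r15a 1.38-fold and Atf4 1.21-fold, and Asns, Chac1, Atf5 and Ddit3 did not pass the test (edgeR's quasi-likelihood test, Benjamini-Hochberg adjusted p of at most 0.05 over all tested genes). By the study's definition of differentially expressed genes (DEGs), which also asks for a 2-fold change, 2 of the 10 were higher and 0 lower, where 23.8% of all tested genes were higher and 6.56% lower. By adjusted p alone, 3 of 10 were higher and 3 of 10 lower, beside 31.2% and 24.1% of all tested genes. The 2 groups of libraries were fully separated in 3 genes that were higher and 2 that were lower, beside 27.0% and 21.4% of all tested genes. These shares are near those of the transcriptome at large. The median log2 fold change was 0.25 over the 10 genes and 0.12 over all tested genes.

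**Figure D1:**
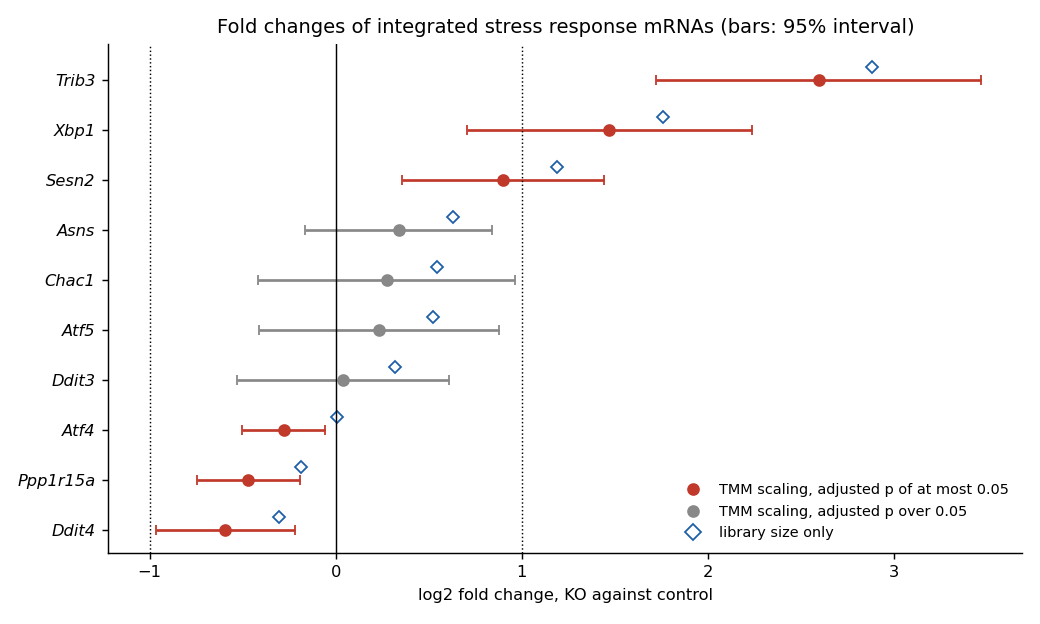
Log2 fold change of each of the 10 mRNAs, KO against control, with TMM scaling (filled circles, bars are 95% intervals, red where adjusted p is at most 0.05) and with library sizes left unscaled (open diamonds). Trib3 and Xbp1 lie beyond the dotted 2-fold line under both scalings, and the genes at the lower end, Atf4, Ppp1r15a and Ddit4, have TMM intervals below 0 and diamonds nearer to 0.

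The decreases depended on how library sizes were scaled. TMM factors were 0.849 to 0.943 in control and 1.07 to 1.14 in KO libraries, and with library sizes left unscaled the median log2 fold change of all genes was higher by 0.29. RLE scaling and DESeq2 each gave 3 of the 10 genes higher and 3 lower by adjusted p, as TMM did, and upper quartile scaling gave 3 and 2, without Atf4. With library sizes unscaled, 4 of the 10 genes were higher by adjusted p (Trib3, Xbp1, Sesn2 and Asns) and 0 lower, where 40.2% and 13.6% of all tested genes were. As DEGs, 3 were higher under that setting, Sesn2 being the third, and 0 lower, beside 29.3% and 3.06% of all tested genes. TMM factors computed on genes of at least 10 CPM moved the median by 0.25 and gave the same counts, 4 higher and 0 lower. These stood beside 39.4% and 14.9% of all tested genes.

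**Figure D2:**
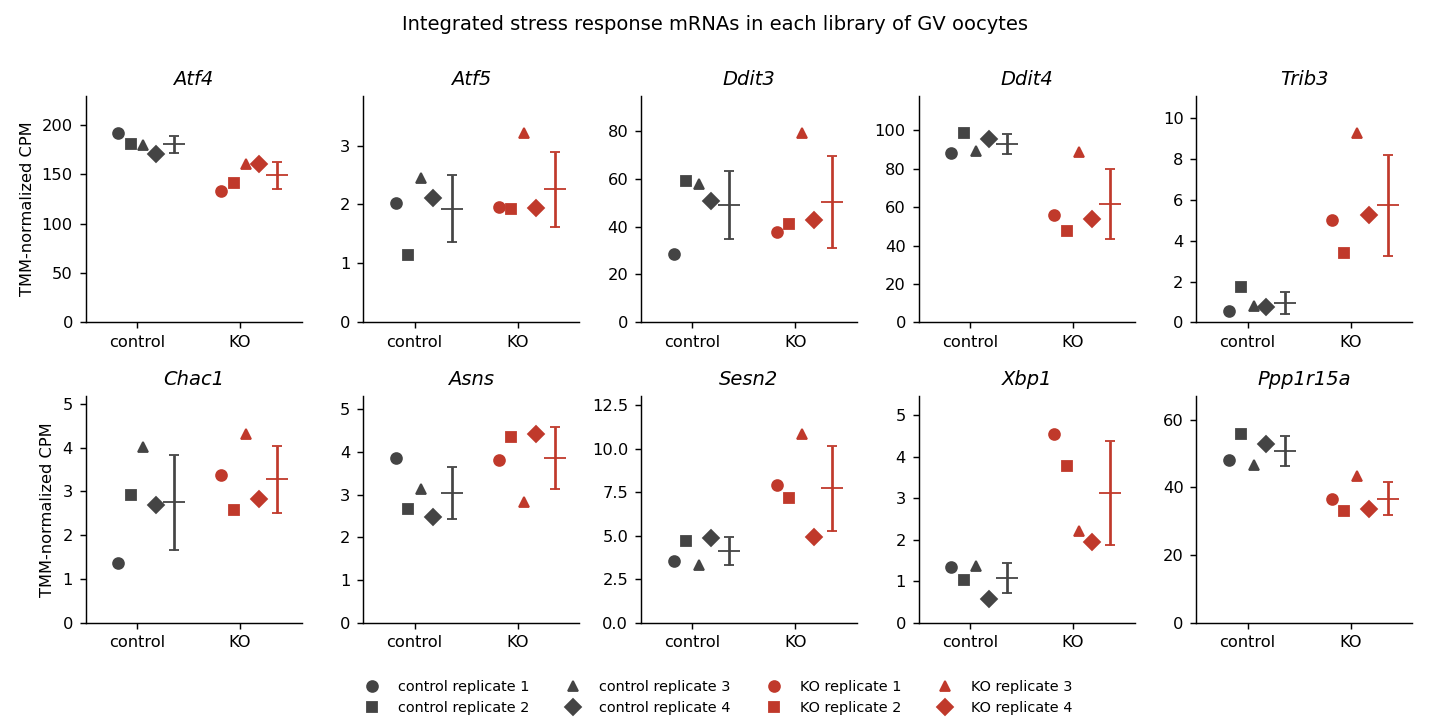
TMM-normalized CPM of each of the 10 mRNAs in each library (symbols by replicate number, dark for control, red for KO), with the mean and SD of 4 libraries beside them and each axis starting at 0. For Trib3, Xbp1 and Sesn2 all KO symbols lie above all control symbols, for Atf4 and Ppp1r15a all lie below, and the triangle of KO replicate 3 is the highest red symbol in 8 panels.

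Among the transcription factors, Atf4 (ENSMUSG00000042406, chr15:80255184-80257541, plus strand), which codes for the central activator of the response, was the most abundant mRNA of the set. Its level was 191, 181, 179.7 and 170.4 CPM in control and 133, 142, 160.3 and 160.2 CPM in KO libraries. All 4 KO values lay under the lowest control value, by a small margin. The log2 fold change was -0.28 (SE 0.10, adjusted p = 0.0358; exact permutation test over 70 assignments, two-sided p = 0.0286, the smallest that 4 libraries against 4 allow). The call was fragile, since it was lost without control replicate 2 (adjusted p = 0.0728), without control replicate 3 (0.0648), without KO replicate 1 (0.105) and without KO replicate 2 (0.0790). With unscaled library sizes the log2 fold change was 0.0069 (adjusted p = 0.958).

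Ddit3 (ENSMUSG00000025408, chr10:127290774-127296288, plus strand) codes for CHOP, the factor that ATF4 induces and that acts with it on feedback and cell death genes. Control libraries had 28.4, 59.1, 57.8 and 50.6 CPM and KO libraries 37.9, 41.1, 78.9 and 42.8 CPM. The groups overlapped, with the lowest value in control replicate 1 and the highest in KO replicate 3. Its log2 fold change was 0.040 (SE 0.26, adjusted p = 0.907), with a 95% interval of the fold change from 0.693 to 1.53, so that a change within these bounds was not detectable here. The sign turned without either outlying library, to -0.15 without control replicate 1 and to -0.25 without KO replicate 3, and did not pass the test in either case (adjusted p = 0.569 and 0.400). The exons of Ddit3 overlap Mars on the opposite strand, which had 135 to 710 counts, and a further gene model of the same name on the same strand in GENCODE vM21, and the strand setting of the counting is not stated.

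Atf5 (ENSMUSG00000038539, chr7:44812256-44816658, minus strand), a relative of ATF4 linked to the mitochondrial stress response, was scarce at 2.03, 1.14, 2.45 and 2.11 CPM in control and 1.95, 1.92, 3.21 and 1.94 CPM in KO libraries. The groups overlapped, and the fold change was 1.17 with a 95% interval from 0.750 to 1.84 (adjusted p = 0.529). Its exons overlap Nup62 and Il4i1 on the opposite strand, so part of these few reads may belong to them.

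Xbp1 (ENSMUSG00000020484, chr11:5520659-5525893, plus strand) codes for the factor that the ER sensor IRE1 activates by splicing its mRNA, and belongs to the arm of the unfolded protein response that runs beside eIF2α. It rose from 1.34, 1.04, 1.36 and 0.583 CPM in control to 4.56, 3.79, 2.22 and 1.94 CPM in KO libraries. Every KO value lay above every control value, and KO replicates 1 and 2 lay highest. The log2 fold change was 1.47 (SE 0.35, adjusted p = 0.00377), a 2.77-fold rise with a 95% interval from 1.63 to 4.72. The granulosa markers Inha and Inhba had the same order of KO libraries, and Fst, Hsd17b1, Nr5a1, Amhr2 and Tnfaip6 were also lowest in KO replicate 4. Ptgs2 and Nr5a2, which also rose, were highest in that library, at 41.8 and 132 CPM, and Star and Has2 were highest there as well. Inha, the inhibin α subunit, was at 38.4, 34.1, 26.5 and 4.77 CPM in KO replicates 1 to 4 and at 6.57, 4.44, 9.9996 and 6.41 CPM in control replicates 1 to 4. The part of granulosa RNA in the rise of Xbp1 was not tested. Without KO replicate 4 the log2 fold change was 1.69.

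Trib3 (ENSMUSG00000032715, chr2:152337422-152344032, minus strand) codes for a pseudokinase that ATF4 and CHOP induce and that binds and restrains both. It showed the largest change of the 10 genes under each setting tried, from 0.535, 1.73, 0.816 and 0.728 CPM in control to 4.99, 3.40, 9.25 and 5.24 CPM in KO libraries. The lowest KO library, replicate 2, was still above the highest control library, also replicate 2. The log2 fold change was 2.597 (SE 0.40, adjusted p = 0.000185), or 6.05-fold with a 95% interval from 3.30 to 11.1. The counts behind it were 10 to 35 per control library and 46 to 154 per KO library. It stayed past both thresholds without each library in turn, with log2 fold changes from 2.28 to 3.08. Trib3 is also the gene of the set that carries both a loose CARE near its annotated start sites and a CPE in its 3′UTR, as printed above. Ddit4, the other gene of the set with a CPE, fell, and the part of either element in these changes was not tested.

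Ppp1r15a (ENSMUSG00000040435, chr7:45522916-45526268, minus strand) codes for GADD34, the inducible subunit that directs protein phosphatase 1 to eIF2α and so ends the response. It fell from 47.97, 55.9, 46.5 and 52.9 CPM in control to 36.6, 33.2, 43.5 and 33.7 CPM in KO libraries, with no overlap. Its log2 fold change was -0.47 (SE 0.13, adjusted p = 0.00815), which held without each library in turn but not with unscaled library sizes (-0.19, adjusted p = 0.258). The overlapping gene Tulp2 on the opposite strand had only 10 to 45 counts. Its constitutive counterpart Ppp1r15b (CReP) had 42.7 to 85.8 CPM in control and 45.6 to 75.6 CPM in KO libraries and did not pass the test (log2 fold change -0.080, adjusted p = 0.775), with a sign that changed with the scaling.

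Ddit4 and Sesn2 code for stress-induced brakes on the growth kinase mTORC1, REDD1 acting through the TSC complex and Sestrin 2 through the GATOR proteins, and their mRNAs moved in opposite directions. Ddit4 (ENSMUSG00000020108, chr10:59949669-59951834, minus strand) had 88.0, 98.4, 89.2 and 95.8 CPM in control and 56.1, 47.7, 88.5 and 53.7 CPM in KO libraries. Of the KO libraries 3 lay far below control, and replicate 3 lay within the control range, just above control replicate 1. The log2 fold change was -0.59 (SE 0.17, adjusted p = 0.0113; exact permutation test, two-sided p = 0.0571), and -0.80 without KO replicate 3 (adjusted p = 0.000283). With unscaled library sizes it was -0.31 (adjusted p = 0.178).

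Sesn2 (ENSMUSG00000028893, chr4:132492032-132510501, minus strand) rose from 3.55, 4.69, 3.33 and 4.88 CPM in control to 7.92, 7.14, 10.9 and 4.90 CPM in KO libraries. The groups were barely separated, with KO replicate 4 next to control replicate 4, while the other KO libraries lay clearly above. KO replicate 4 was the lowest KO library for the granulosa markers Inha, Inhba, Fst, Hsd17b1, Nr5a1, Amhr2 and Tnfaip6. It was the highest for the granulosa markers Ptgs2, Nr5a2, Star and Has2. The granulosa marker sum was lowest in KO replicate 3 (254 CPM), where Sesn2 was highest. The part of granulosa RNA in the rise of Sesn2 was not tested. The log2 fold change was 0.90 (SE 0.25, adjusted p = 0.00900), with a fold change of 1.87 and a 95% interval from 1.28 to 2.72. Without KO replicate 4 it was 1.09, and Sesn2 then counted as a DEG.

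The 2 metabolic targets did not pass the test. Asns (ENSMUSG00000029752, chr6:7675169-7693254, minus strand), which codes for asparagine synthetase, a standard readout of ATF4 activity, had 3.85, 2.66, 3.13 and 2.48 CPM in control and 3.80, 4.34, 2.84 and 4.43 CPM in KO libraries. The groups overlapped, and the fold change was 1.26 (95% interval from 0.893 to 1.79, adjusted p = 0.230), but Asns passed with unscaled library sizes (log2 fold change 0.63, adjusted p = 0.0292). Chac1 (ENSMUSG00000027313, chr2:119351229-119354381, plus strand), which codes for an enzyme that degrades glutathione, was the gene with the exact CARE. It had 1.36, 2.91, 4.01 and 2.69 CPM in control and 3.37, 2.58, 4.32 and 2.83 CPM in KO libraries. Its fold change was 1.21 (95% interval from 0.750 to 1.95, adjusted p = 0.485), and both its highest values came from libraries numbered replicate 3.

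Compared per kilobase of exon, the 10 mRNAs fell into 2 classes of level in control oocytes. Atf4 stood at 76.5 ± 3.63 CPM per kb (SD, n = 4), Ddit4 at 52.9 ± 2.86, Ddit3 at 28.6 ± 8.32 and Ppp1r15a at 17.3 ± 1.48. The other 6 genes lay from 1.68 ± 0.664 (Chac1) through Sesn2, Asns, Atf5 and Trib3 (0.448 ± 0.249) down to Xbp1 (0.332 ± 0.112), and no neighbouring pair among these 6 was separated in all libraries. Ddit3 and Ppp1r15a also overlapped, through control replicate 1. In KO oocytes, the means of the first 4 kept their order, with Ddit4 and Ddit3 overlapping, at 63.1 ± 5.81, 35.04 ± 10.4, 29.3 ± 11.2 and 12.5 ± 1.61 CPM per kb, and Trib3 moved from the ninth to the fifth place with 2.69 ± 1.17, overlapping Sesn2 at 2.22 ± 0.707. The 3 genes that rose were thus among the scarce ones, and the 3 that fell were among the 4 abundant ones. None of the 3 decreases passed the test with library sizes unscaled or with TMM factors from genes of at least 10 CPM. Over all genes, the median log2 fold change also went down as scarce genes were filtered out. It was 0.39 without a filter, 0.12 as tested and -0.012 with at least 1 CPM in 4 libraries.

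**Figure D3:**
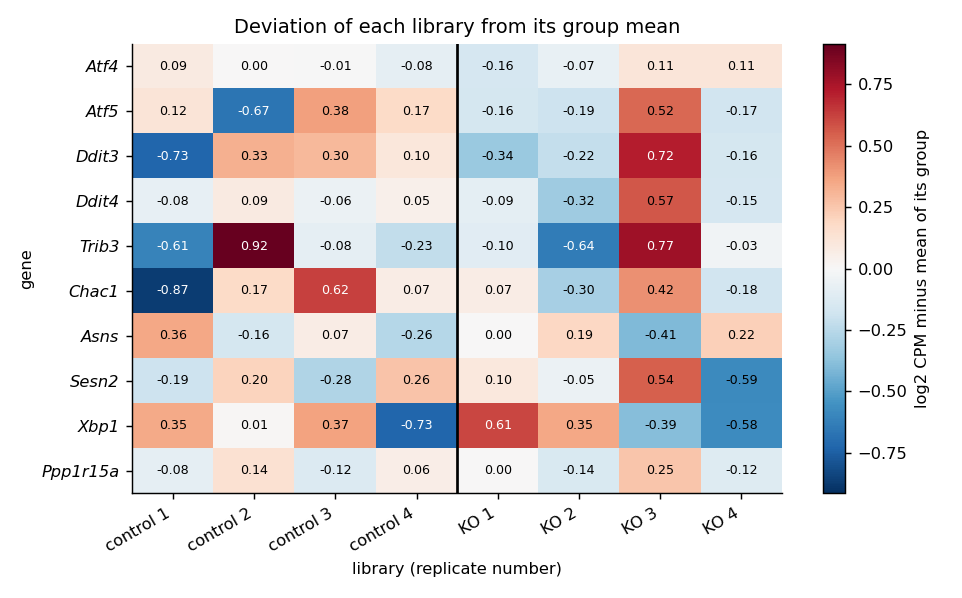
Deviation of each library from the mean of its own group, in log2 CPM with a prior count of 2, for the 10 mRNAs (rows) in the 8 libraries (columns). The column of KO replicate 3 is red in 8 of 10 rows, and that of control replicate 1 is darkest blue for Ddit3, Trib3 and Chac1.

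Within the KO group, 1 library stood out. KO replicate 3 was the highest KO library for 8 of the 10 genes, the exceptions being Asns, where it was the lowest, and Xbp1. Atf4 was among the 8 only by 160.25 against 160.22 CPM in KO replicate 4. The share of all tested genes that were highest in KO replicate 3 was not counted, so the 8 may not set these genes apart. The value in KO replicate 3 exceeded the mean of its group by 0.77 on the log2 scale for Trib3, 0.72 for Ddit3, 0.57 for Ddit4 and 0.54 for Sesn2. Among control libraries, replicate 1, the deepest, was the lowest for Ddit3, Ddit4, Trib3 and Chac1 and the highest for Atf4 and Asns, and no control library was the highest for more than 4 genes. KO replicate 3 had 14210736 counts, the highest TMM factor (1.14) and the lowest granulosa marker sum of the KO libraries (254 CPM), and the part of any of these was not tested. Without it, Trib3 stayed at a log2 fold change of 2.28, Sesn2 at 0.70 (adjusted p = 0.0317) and Ppp1r15a at -0.54.

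Over the 8 libraries, the mRNA whose log2 CPM ran most closely with Atf4 among 8726 genes of at least 10 CPM was Insig1 (Pearson r = 0.995), followed by Cyb5d2 (0.988). Insig1 had 692, 623, 615 and 569 CPM in control and 388, 403, 505 and 500.2 CPM in KO libraries, the same order of libraries within the control group as Atf4. For Ddit3 the closest were Phkg2 (0.959), Hexdc (0.945) and Pcif1 (0.939). All values of a library share its depth and its scaling, and the coefficients only describe these 8 libraries.

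Upstream of the 10 genes, the 4 eIF2α kinases moved in different directions. Eif2ak3, which codes for PERK, the kinase of ER stress, had 12.4, 7.50, 10.95 and 9.03 CPM in control and 48.7, 46.5, 51.5 and 56.0 CPM in KO libraries. The KO libraries lay close together and far above control, with a log2 fold change of 2.34 (SE 0.17, adjusted p = 6.1e-07), or 5.06-fold. Eif2ak2, which codes for PKR, the kinase activated by double-stranded RNA, rose from 0.874 to 2.35 CPM in control to 2.96 to 7.52 CPM in KO libraries (log2 fold change 1.71, adjusted p = 0.00124). Eif2ak4, which codes for GCN2, the kinase of amino acid shortage, fell from 104 to 124 CPM to 49.4 to 56.1 CPM (log2 fold change -1.07, adjusted p = 6.7e-06). Eif2ak1, which codes for HRI, the heme-regulated kinase, fell from 144 to 231 CPM to 116 to 137 CPM (log2 fold change -0.46, adjusted p = 0.0199), and this last call was lost with unscaled library sizes (-0.16, adjusted p = 0.296), with upper quartile scaling (adjusted p = 0.0508) and with TMM factors from genes of at least 10 CPM (adjusted p = 0.163).

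The partners of GCN2 moved as well. Gcn1l1, which codes for the ribosome-bound activator that GCN2 needs, fell 3.18-fold, from 82.0, 201, 159 and 198 CPM to 65.0, 41.1, 61.5 and 34.3 CPM (log2 fold change -1.67, adjusted p = 0.000306). Impact, which codes for an inhibitor that competes for GCN1, rose 2.63-fold, from 4.88 to 11.7 CPM in control to 18.3 to 25.2 CPM in KO libraries (adjusted p = 0.000576). Neither gene overlapped between the groups, although control replicate 1 of Gcn1l1 lay well below the other control libraries.

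Of eIF2 itself, Eif2s1, which codes for the phosphorylated α subunit, fell from 122 to 145 CPM to 93.2 to 105 CPM (log2 fold change -0.40, adjusted p = 0.00546), a call that was lost with unscaled library sizes (-0.11, adjusted p = 0.287) and with TMM factors from genes of at least 10 CPM (adjusted p = 0.139). By RT-qPCR relative to spike-in RNA, the study found no significant difference in Eif2s1 mRNA. It reported more of the protein in KO oocytes, and the mRNA in heavier polysome fractions. The subunits of eIF2B, the target of phosphorylated eIF2, split. Eif2b4 (log2 fold change -1.30), Eif2b2 (-1.01), Eif2b3 (-0.84) and Eif2b1 (-0.67) fell. Eif2b2 overlapped between control and KO libraries, with 18.8 CPM in control replicate 1 and 20.2 CPM in KO replicate 3. Eif2b5, which codes for the catalytic ε subunit, rose by 0.76. Over all 21 tested genes of this group, 6 were higher and 11 lower by adjusted p, beside 31.2% and 24.1% of all tested genes, with a median log2 fold change of -0.40. With unscaled library sizes the counts were 8 and 7, beside 40.2% and 13.6% of all genes, and the median -0.11.

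**Figure D4:**
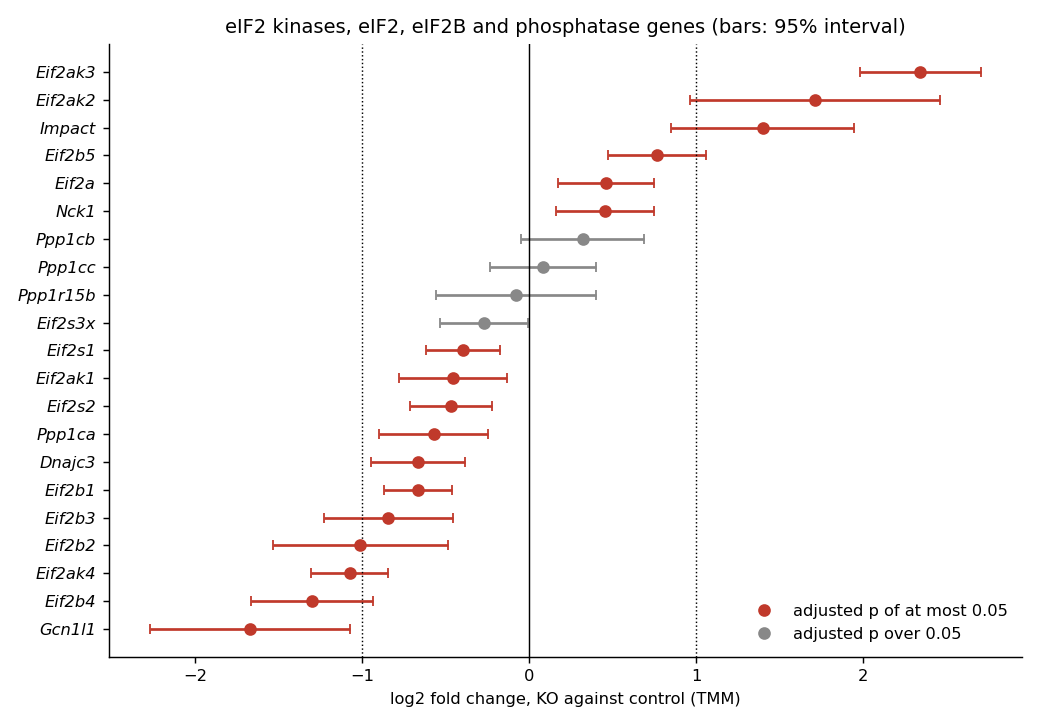
Log2 fold change with 95% intervals (bars), KO against control, of 21 genes that code for eIF2α kinases, their regulators, eIF2 and eIF2B subunits and phosphatase subunits, sorted by value, with dotted lines at 2-fold and red where adjusted p is at most 0.05. Eif2ak3 stands alone at the top near 2.34, and Gcn1l1, Eif2b4 and Eif2ak4 lie beyond the 2-fold line at the other end.

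Further genes of the response were counted from lists set down with the 10. Of 31 genes of amino acid supply and other known ATF4 targets, 14 were higher and 7 lower by adjusted p (10 and 3 as DEGs), with a median log2 fold change of 0.22. Of all tested genes, 31.2% were higher and 24.1% lower by adjusted p and 23.8% and 6.56% as DEGs, which holds for each list that follows. Slc7a3, Fgf21 and Aldh1l2, counted among the 10 higher DEGs, passed the filter on low counts only through KO libraries. Slc1a4, a carrier of alanine, serine and cysteine, went from 0.583 to 0.909 CPM in control to 4.83 to 8.51 CPM in KO libraries, an 8.47-fold rise (adjusted p = 1.8e-06). Vldlr, the very low density lipoprotein receptor, rose 6.79-fold, and Psat1, an enzyme of serine synthesis, 5.93-fold from 0.146 to 0.493 CPM to 1.95 to 2.71 CPM. Slc38a2, a carrier of neutral amino acids, rose 4.90-fold (adjusted p = 0.00826), but its KO values of 15.6, 14.3, 6.78 and 1.80 CPM overlapped the control values of 0.543 to 3.13 CPM. These KO values fell in the order of the granulosa markers Inha and Inhba. The granulosa markers Fst, Hsd17b1, Nr5a1, Amhr2 and Tnfaip6 were also lowest in KO replicate 4, whereas Ptgs2, Nr5a2, Star and Has2 were highest there. The part of granulosa RNA was not tested. Slc7a11, the cystine carrier, fell from 735 to 1001 CPM to 300.03 to 423 CPM (log2 fold change -1.09, adjusted p = 4.4e-05), and Stc2, a secreted glycoprotein (-1.44), and Gpt2, a mitochondrial alanine transaminase (-1.18), fell with it. With unscaled library sizes, 15 genes of this list were higher and 5 lower by adjusted p, and 13 and 1 as DEGs. Of all tested genes, 40.2% and 13.6% were then higher and lower by adjusted p, and 29.3% and 3.06% as DEGs.

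Of 14 bZIP partners and related regulators, 2 were higher, 2 lower and 10 did not pass the test. Batf3, a dimerization partner best known from dendritic cells, fell from 2.11 to 5.71 CPM to 0.613 to 1.54 CPM (log2 fold change -1.94, adjusted p = 0.000866).

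Of 30 genes of the IRE1 and ATF6 arms and of ER folding, 16 were lower and 3 higher by adjusted p (4 and 2 as DEGs), with a median log2 fold change of -0.36. Those that fell as DEGs were Atf6b, a homolog of the ER sensor ATF6 (-1.39), the disulfide isomerase gene Pdia4 (-1.22), the cochaperone gene Sdf2l1 (-1.13) and Manf, an ER stress-induced secreted factor (-1.01). Those that rose were Ero1l, an oxidase that drives disulfide formation (2.29, from 0.937 to 2.35 CPM to 7.49 to 9.23 CPM), and Herpud1, a component of ER-associated degradation (2.02, from 0.0728 to 1.02 CPM to 1.09 to 1.98 CPM). With unscaled library sizes the split of this list was 9 lower and 7 higher, where 13.6% of all genes were lower and 40.2% higher.

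Over these 96 genes together, 16 were higher and 13 lower as DEGs, and 25 higher and 36 lower by adjusted p, with a median of -0.18. Among the higher DEGs, Cebpa, Slc7a3, Fgf21 and Aldh1l2 passed the filter on low counts only through KO libraries. Among the lower, Cebpd passed it only through control libraries. These calls rest on few counts and depend on the filter. Unscaled library sizes gave 22 higher and 6 lower DEGs and turned the median to 0.11. Of all tested genes, 29.3% were then higher and 3.06% lower as DEGs, with a median of 0.40. TMM factors from genes of at least 10 CPM gave 21 and 6 and a median of 0.074. Beside these stood 28.6% and 3.26% of all tested genes and a median of 0.37. No KO library had over 3 counts of Jdp2, and no control library over 3 of Aldh1l2, Slc7a3 or Fgf21. Setting these 4 to their bounds (3 counts over the group) left every list median as given.

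**Figure D5:**
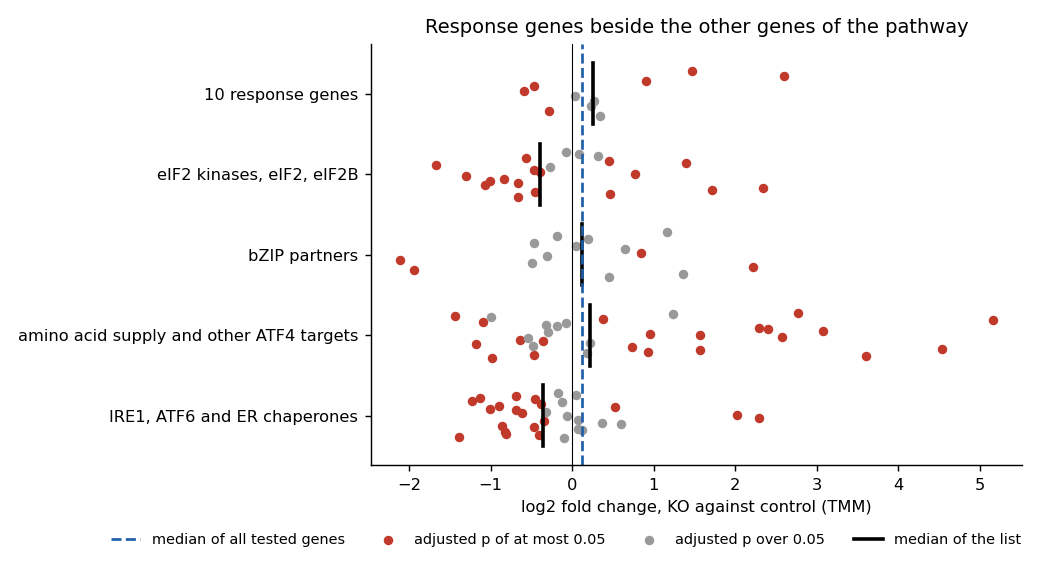
Log2 fold change, KO against control, of each tested gene (points, jittered vertically) in the 10 response genes and the 4 further lists, with the median of each list (black bar) and of all tested genes (dashed line at 0.12), red where adjusted p is at most 0.05. The response genes spread to both sides of 0, the ER list lies mostly to the left, and the 3 points farthest right in the ATF4 target row are Slc7a3, Fgf21 and Aldh1l2, whose control libraries had at most 3 counts and whose fitted values depend on the prior count.

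Relatives of the 10 genes changed in both directions. Trib2, a pseudokinase of the same family as Trib3, fell from 32.4 to 36.9 CPM to 6.30 to 10.3 CPM (log2 fold change -2.07, adjusted p = 1.5e-06), whereas Trib1 was at 0.728 to 1.18 CPM and 0.604 to 1.36 CPM (0.037, adjusted p = 0.933). Ddit4l, the REDD2 gene, rose from 0.444 to 1.55 CPM to 2.64 to 4.84 CPM (1.94, adjusted p = 0.00106) where Ddit4 fell. Chac2 rose from 8.49 to 11.6 CPM to 19.1 to 24.9 CPM (1.15, adjusted p = 8.4e-05). Of the other sestrins, Sesn3 rose by 0.56 (adjusted p = 0.0217), a call lost without control replicate 2 (adjusted p = 0.0610) and without control replicate 3 (0.0651), and Sesn1 had a log2 fold change of 0.16 (adjusted p = 0.654). In all, 3 of the 7 relatives were higher and 1 lower by adjusted p. The differences within these families were not tested as such.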

How the data were processed

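RNA was measured in 8 libraries of GV oocytes, 4 CNOT7&8 KO and 4 Zp3-Cre control, grouped by the labels. The authors depleted ribosomal RNA, amplified the libraries with 11 PCR cycles, sequenced pairs of 150-base reads and aligned them with STAR 2.6.1d (nf-core/rnaseq) to GRCm38. The authors deposited raw counts for 46078 genes, without normalization, filtering or pooling. The counting tool, annotation and strand setting are not given in the sources used here. The authors used edgeR 3.11 and its exact test.

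Here the deposited counts were tested with edgeR 4.0.16 under R 4.3.3. The filter required 0.2 CPM or more in at least 2 libraries. The quasi-likelihood test was run after TMM scaling, with Benjamini-Hochberg adjustment over all 19241 tested genes. A gene with adjusted p no larger than 0.05 and a change of 2-fold or more was called a DEG. Single genes were also compared by an exact permutation test on log2 CPM (prior count 2) over 70 assignments, whose smallest two-sided p is 0.0286. Alternatives were other scalings (library size only, RLE, upper quartile, TMM from genes at 10 CPM or more), 2 other filters, edgeR's exact test, DESeq2 1.42.0, adjusted p alone, the replicate number as a block, and leaving out each library.

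Coordinates, exon lengths and UTRs came from GENCODE vM21, which held 98.0% of the gene identifiers, and promoters from RefSeq (GRCm38.p6), where all 10 genes were found. Ppp1ca names more than 1 row of the table, and the tested one was used. Levels per kilobase use all exons of a gene. Genes named outside the 10 are the targeted genes, the eIF2α kinases with Eif2s1 and Ppp1r15b, all relatives, and in each list up to 4 DEGs per direction with the largest change and a mean of at least 1 CPM, plus the 3 genes most like Atf4 and Ddit3, of which 1 is not reported here. Eif2b1, Eif2b3 and Eif2b5, the genes at the detection floor, those that passed the filter through only 1 group, those that overlap a response gene and the single markers were named after their values were seen. The 10 genes and all lists were chosen with earlier results of these data known. Figures were drawn with Python 3.11.15 and matplotlib 3.10.9.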

Additional observations from a re-analysis of the deposited data

Results flagged for a closer look

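Among the 20 groups of 4 libraries formed by the 10 genes in 2 genotypes, 2 held a library that stood apart by Dixon's criterion, where chance gives about 1 in 20. Both were KO replicate 3. Atf5 was at 3.21 CPM in that library and at 1.92 to 1.95 CPM in the other KO libraries. Ddit3 was at 78.9 CPM and at 37.9 to 42.8 CPM in the others. Neither gene passed the test between the genotypes with all libraries.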

How the results depend on the processing

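Trib3, Xbp1 and Sesn2 stayed higher and past an adjusted p of 0.05 under each alternative run. Leaving out 1 library each gave 2 to 3 response genes as higher DEGs, 0 as lower, 14 to 17 other pathway genes as higher and 10 to 13 as lower. By adjusted p alone, 3 response genes and 36 other pathway genes were lower and 25 other pathway genes higher. Without control replicate 1 and KO replicate 4, the counts were 3 and 0 for the response genes and 20 and 12 for the others. Lower DEGs of the other pathway lists numbered 6 both with library size only and with TMM on genes of at least 10 CPM. Of all tested genes, 3.06% and 3.26% were lower DEGs under these settings. Reversed signs were found in genes that did not pass the test under that setting. With library size only, the log2 fold change of Atf4 was 0.0069 and that of Ppp1r15b 0.22. Ppp1r15b was at 0.027 with upper quartile scaling, 0.19 with TMM on genes of at least 10 CPM, 0.18 without control replicate 1, and 0.015, 0.036 and 0.0018 without KO replicates 1, 2 and 3. Ddit3 turned to -0.15 without control replicate 1, -0.25 without KO replicate 3 and -0.078 without control replicate 1 and KO replicate 4, an alternative added after seeing the data. Trib1 turned to -0.064 without control replicate 4, -0.17 without KO replicate 4 and -0.076 without both control replicate 1 and KO replicate 4. Leaving out 1 library each gave up to 0.16 for Ddit3, down to -0.24 for Ppp1r15b and up to 0.25 for Trib1. The cause was not tested. Atf4 was at an adjusted p of 0.0522 by the exact test, 0.136 with upper quartile scaling, 0.0712 without a filter, 0.0736 with at least 1 CPM in 4 libraries, and between 0.0139 and 0.958 over all its alternatives.

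Replicate numbers are shared by the groups, but the labels do not say whether they mark pairs. Deviations of same-numbered libraries correlated at -0.15, -0.10, 0.24 and -0.28, and KO replicate 4 ran closest with control replicate 1 (0.59). With so few libraries per group, these correlations cannot tell whether same-numbered libraries were prepared together. With the replicate number as a block, the response genes gave 2 higher and 0 lower DEGs, as without it, and Atf4 had an adjusted p of 0.0955. Levels near 1 CPM rest on few reads, and the shallowest library, KO replicate 1, sets the precision there.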
